A study of Mus musculus with 6 samples.

Results

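Apob, Psap, Grn and Sdf4 encode proteins reported to leave the endoplasmic reticulum (ER) with the help of SURF4, and their mRNA was examined here in mouse liver with and without Surf4 in hepatocytes. The 4 genes were taken by name, for what has been reported of their proteins and not for any measured value. They are 4 of the 35540 gene symbols in the deposited table, and all 4 passed the minimum mean of 0.1 TPM, as did 14189 genes in all. TPM are transcript abundances corrected for transcript length and scaled to the same sum in every mouse, so levels of different genes can be set side by side.

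Whole liver RNA was sequenced for 2 genotypes with 3 mice each, Surf4 fl/fl Alb-Cre+ and, as littermate controls, Surf4 fl/fl Alb-Cre-, all of them C57BL/6J and fasted overnight. Both genotypes were homozygous for a conditional Surf4 allele whose exon 2 lies between loxP sites, and only Alb-Cre+ mice carried Cre recombinase. Cre was driven by the Albumin promoter, which is active in hepatocytes. The authors consider it likely that the remaining intact Surf4 mRNA comes from liver cells other than hepatocytes. Deletion in each cell type was not measured here. Replicate 2 of each genotype was a female mouse and the others were males. The age of these mice is not given in the sources used here. Because the tissue was not separated, fewer cells of a type and less RNA per cell cannot be told apart.

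SURF4 is a membrane protein of the ER and the early secretory pathway that recruits soluble proteins into COPII vesicles, the carriers that leave the ER for the Golgi apparatus. Its reported cargo differ widely in function. APOB is the structural protein of very low density lipoprotein, on which hepatocytes load triglyceride. PSAP (prosaposin) is cut in lysosomes into saposins, small activators of lipid-degrading enzymes. GRN (progranulin) is a secreted glycoprotein that also travels to lysosomes, where it is cut into granulins, and is abundant in macrophages. SDF4 (Cab45) is a calcium-binding protein of the Golgi that sorts secretory proteins. The measurement here is of mRNA, upstream of any step at which SURF4 acts.

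The targeted gene was lower in every Alb-Cre+ liver. Surf4 stood at 59.0, 71.8 and 54.3 TPM in Alb-Cre+ replicates 1, 2 and 3, and at 92.5, 94.5 and 92.5 TPM in the corresponding Alb-Cre- mice. The genotypes did not overlap. The log2 fold change was -0.60 (SE 0.13, 95% interval -0.92 to -0.29), with an adjusted p of 1.00 in limma and of 0.472 with the replicate number as a block. Summed TPM count mRNA that lacks exon 2 as well, and so do not measure the deletion itself. Hepatocyte markers were abundant in all mice, with Alb, the gene of serum albumin, at 38059 to 55647 TPM. The 8 hepatocyte markers summed to 63463 to 83192 TPM in Alb-Cre+ and 80788 to 93340 TPM in Alb-Cre- mice. Apoa1, the gene of the main protein of high density lipoprotein, was the only hepatocyte marker with an unadjusted p under 0.05 in limma (log2 fold change -0.91, adjusted p = 1.00). The part of these marker levels in the values of the cargo genes was not tested.

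No gene passed an adjusted p of 0.01 between the genotypes (0.0% of 14189 genes, smallest adjusted p 0.456 in limma), and none of the 4 cargo genes did. The targeted gene Surf4 was not called either, so a gene without a call cannot be taken as unchanged. The authors' own comparison of the genotypes, made with another method (DESeq2), reported a limited set of genes at a false discovery rate under 0.01. At an unadjusted p under 0.05 there were 250 genes (1.76%) and 0 of the 4.

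By summed TPM Apob was the most abundant of the 4 genes, at rank 220 of 14189 by mean level. It lies on chromosome 12 (GRCm38, chr12:7977648-8016835, plus strand). Its level was 519, 743 and 550 TPM in Alb-Cre+ replicates 1, 2 and 3, and 506, 792 and 533 TPM in the Alb-Cre- mice. In both genotypes the female replicate 2 was the highest and the genotypes overlapped throughout. Means were 604 ± 121 TPM (SD, n = 3) in Alb-Cre+ and 610 ± 158 TPM (SD, n = 3) in Alb-Cre- mice. The log2 fold change was -0.00 (SE 0.22), and its 95% interval of -0.53 to 0.53 reached from 0.691-fold to 1.44-fold. Within same-numbered pairs the log2 differences were 0.04, -0.09 and 0.05, and with a replicate block the interval narrowed to -0.24 to 0.23.

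Most Apob TPM were placed on a short model of the 3′ end of the gene. In the GENCODE M21 annotation Apob-202 has 29 exons and 13934 bases and covers the whole gene, whereas Apob-203 has 5 exons and 2174 bases (chr12:8012359-8016835). It begins inside exon 26 of Apob-202, a long coding exon. Apob-203 also skips 790 bases (chr12:8015083-8015872) inside the last exon. Apob-203 held 61.6, 52.3 and 67.4% of Apob TPM in Alb-Cre+ replicates 1, 2 and 3, and 61.3, 64.5 and 61.3% in Alb-Cre- mice. The shares overlapped and the Alb-Cre+ mean was lower by a difference of -1.92 percentage points (exact permutation test, two-sided p = 0.9). Since TPM divide by length, the same transcript held only 14.6 to 24.4% of TPM multiplied by length, and Apob-202 held 75.6 to 85.3%. Of the 2144 stretches of 31 bases in Apob-203, 26 (1.21%) are absent from Apob-202, all of them over the join shown here. Apob-202 in turn holds 10970 bases before the start of Apob-203, and the 790 bases that Apob-203 skips. Few bases are thus particular to Apob-203, while most of Apob-202 is not in Apob-203. The bases on both sides of that join are shown because Apob-203 has stretches of its own only there. The sequence of Apob-202 that continues at the same place is shown with them. The first 20 bases are common to both and end at the same position of exon 29, and the 20 bases that follow are in capitals.
Apob-203: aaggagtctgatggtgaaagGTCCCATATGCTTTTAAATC
Apob-202: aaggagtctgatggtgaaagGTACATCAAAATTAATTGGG
Apob-202 alone was present at 199, 354 and 179 TPM in Alb-Cre+ and at 196, 281 and 206 TPM in Alb-Cre- mice. Its levels overlapped between genotypes as well.

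Psap, at rank 422, followed Apob in summed level in every mouse. The gene lies at chr10:60277627-60302597 on the plus strand. Levels in Alb-Cre+ replicates 1, 2 and 3 were 298, 374 and 256 TPM, and those of the Alb-Cre- mice were 293, 351 and 245 TPM. Replicate 2 was again highest in each genotype, replicate 3 was lowest in each, and the genotypes overlapped. Means were 309 ± 60.0 TPM (SD, n = 3) and 296 ± 53.3 TPM (SD, n = 3). Its log2 fold change was 0.06 (SE 0.19, 95% interval -0.40 to 0.52), and pairs differed by 0.02, 0.09 and 0.07. With libraries scaled by the median of ratios, the pair 2 difference was -0.07.

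The Psap transcripts differ at a short stretch between exon 7 and the exon that starts at chr10:60299098. Psap-202 joins these exons directly. Psap-205 inserts a separate exon of 9 bases (chr10:60297537-60297545), and Psap-201 starts the following exon 6 bases earlier. Both insertions are multiples of a codon and lie in coding sequence, where they add residues to the saposin precursor. The inserted bases are in capitals, with 24 bases of the neighbouring exons on each side.
Psap-202: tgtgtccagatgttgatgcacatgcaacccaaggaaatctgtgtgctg
Psap-205: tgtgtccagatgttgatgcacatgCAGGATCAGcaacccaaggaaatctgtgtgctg
Psap-201: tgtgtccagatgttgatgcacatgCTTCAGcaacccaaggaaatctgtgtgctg
The form without insertion, Psap-202, held 91.1, 93.5 and 90.1% of Psap TPM in Alb-Cre+ mice and 91.9, 91.6 and 92.3% in Alb-Cre- mice. Psap-205 held 7.26, 4.64 and 8.25% in Alb-Cre+ and 6.85, 6.25 and 6.50% in Alb-Cre- mice, and Psap-201 held 0.338 to 0.736% over all 6. In all mice most Psap TPM were thus placed on the form without the 9 bases, although only 28 of the 2616 stretches of 31 bases in Psap-202 (1.07%) and 39 of the 2627 in Psap-205 (1.48%) are absent from the other transcript. The Psap-205 share differed by 0.18 percentage points between genotypes, with overlap (exact permutation test, two-sided p = 0.9).

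Grn was the cargo gene with the largest difference between genotypes. It lies at chr11:102430315-102437048 on the plus strand, and ranked 521 by mean level. Alb-Cre+ replicates 1, 2 and 3 stood at 230, 308 and 244 TPM, and the Alb-Cre- mice at 189, 262 and 186 TPM. Each Alb-Cre+ mouse was above the Alb-Cre- mouse with its number, but the female Alb-Cre- mouse was above both male Alb-Cre+ mice, so that the genotypes overlapped. Means were 261 ± 41.1 TPM (SD, n = 3) and 212 ± 43.0 TPM (SD, n = 3).

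Grn had a log2 fold change of 0.30 (SE 0.18), or 1.24-fold with a 95% interval of 0.914 to 1.67, and did not pass the test (limma, unadjusted p = 0.141, adjusted p = 1.00). The exact two-sided permutation test gave p = 0.3, where 0.1 is the smallest p that 3 mice against 3 allow. Pair differences were 0.29, 0.23 and 0.39 on the log2 scale, and 0.31, 0.07 and 0.53 once libraries were scaled by the median of ratios. In the fit with a replicate block the 95% interval was 0.08 to 0.53, and the unadjusted p in limma was 0.0174, and 4.69% of all genes were under 0.05 in that fit. The adjusted p with the block was 0.890, so Grn was not called in either fit. Grn and Psap, 2 of the 4 genes, were higher in all 3 Alb-Cre+ mice than in their same-numbered controls, as were 11.5% of all genes tested.

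A single Grn transcript accounted for most of the gene. Grn-201, with 13 exons, held 85.9, 87.9 and 90.9% of Grn TPM in Alb-Cre+ and 88.2, 87.1 and 92.9% in Alb-Cre- mice, and 96.5 to 98.2% of TPM multiplied by length over the transcripts with a length in GENCODE M21. It stood at 198, 270 and 222 TPM in Alb-Cre+ and 166, 228 and 173 TPM in Alb-Cre- mice, so that, as for the summed gene, each Alb-Cre+ mouse was above its same-numbered control and the genotypes overlapped. The other 10 Grn transcripts were at most 6.25% each, and the highest of them, which is not in GENCODE M21, is left out of the share by length. The last 68 bases of the Grn locus overlap Fam171a2 on the opposite strand, and whether the reads were counted by strand is not given in the sources used here. Of the stretches of 31 bases in the annotated Grn transcripts 2.66% also occur in another gene, against 0.529% for Sdf4 and 0 for Apob and Psap.

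Sdf4 was the least abundant of the 4 genes and, in TPM as deposited, the steadiest. It lies at chr4:155992872-156013610 on the plus strand and ranked 1086 by mean level. Alb-Cre+ replicates 1, 2 and 3 stood at 84.2, 91.9 and 84.3 TPM, and the Alb-Cre- mice at 87.8, 93.0 and 85.4 TPM. The values of both genotypes lay within the same narrow band, and over the 6 mice the coefficient of variation was 4.40%, against 20.8% for Apob, 16.9% for Psap and 19.5% for Grn. With libraries scaled by the median of ratios Sdf4 ranged more widely, from 76.1 to 99.5. Means were 86.8 ± 4.43 TPM (SD, n = 3) in Alb-Cre+ and 88.7 ± 3.86 TPM (SD, n = 3) in Alb-Cre- mice. The log2 fold change of -0.03 (SE 0.11) had a 95% interval of -0.28 to 0.22, or 0.821-fold to 1.16-fold, the narrowest of the 4.

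The Sdf4 transcripts described here differ in their untranslated first exons and in the length of the last exon. That last exon has 437 bases in Sdf4-204, 545 in Sdf4-203 and 3837 in Sdf4-201. Sdf4-204 starts at position 155992872 with a pair of untranslated exons, and Sdf4-203 starts at position 155993377 with a single untranslated exon. Both join the same exon that holds the start codon (chr4:155996189-155996518) and have the same numbers of coding bases in each coding exon. Sdf4-204 held 70.3 to 75.0% of Sdf4 TPM over the 6 mice and Sdf4-203 held 17.7 to 23.5%. Sdf4-201, whose last exon is long and mostly untranslated, held 4.60 to 5.47%. None of these shares separated the genotypes, and over the 8 transcript shares compared for the 4 genes the exact permutation p was 0.3 or more (adjusted p = 0.9).

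**Figure D1:**
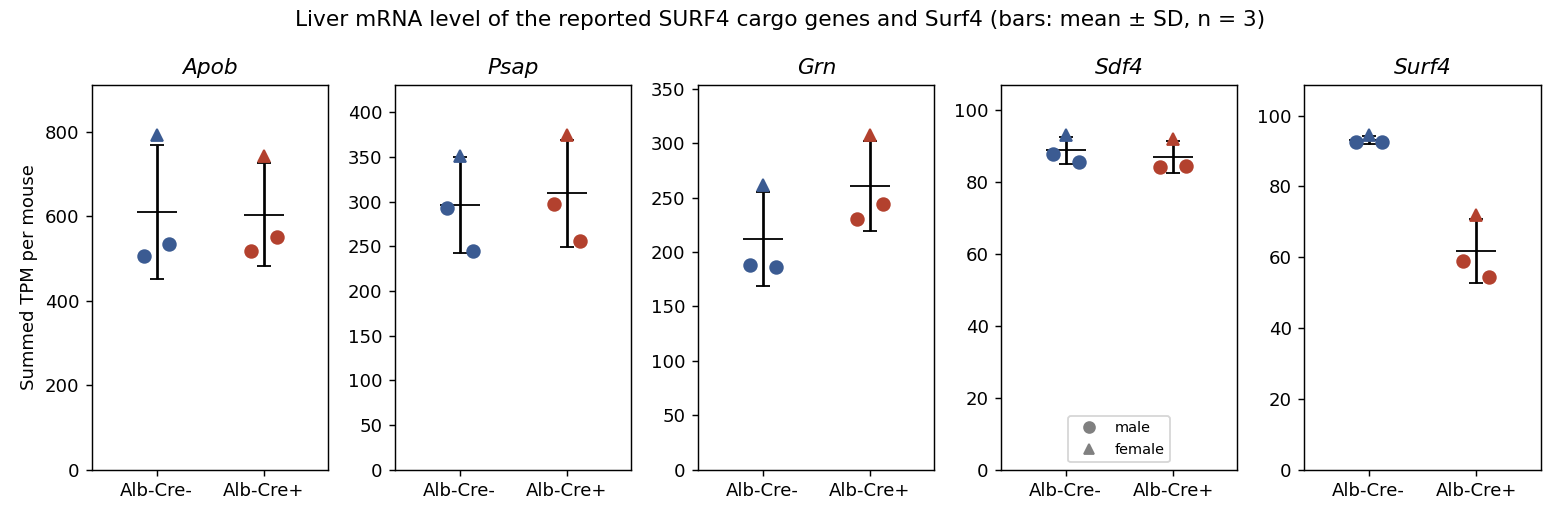
Summed TPM of each mouse (y axis, from 0) for the 4 cargo genes and Surf4, by genotype (x axis), with circles for male and triangles for female mice, and bars for the mean ± SD of 3 mice. The female mouse is the highest of its genotype for all 4 cargo genes, the genotypes overlap for each of them, and only Surf4 separates, at 54.3 to 71.8 TPM in Alb-Cre+ and 92.5 to 94.5 TPM in Alb-Cre- mice.

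**Figure D2:**
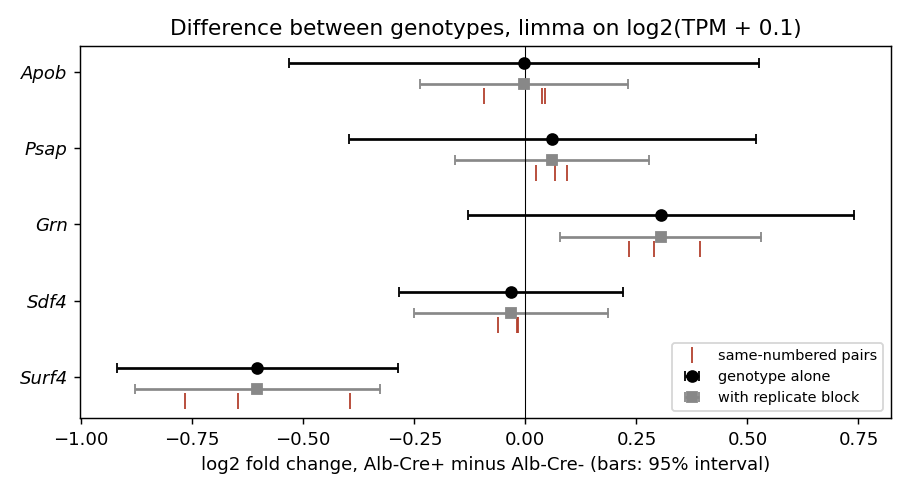
Log2 fold change of Alb-Cre+ over Alb-Cre- mice (x axis) for each gene (y axis), with 95% intervals from limma for genotype alone (black circles) and with a replicate block (grey squares), and the difference of each same-numbered pair (red ticks). The intervals of Apob, Psap and Sdf4 include 0 in both fits, that of Grn includes 0 without the block (-0.13 to 0.74) and not with it (0.08 to 0.53), and both intervals of Surf4 lie below 0.

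**Figure D3:**
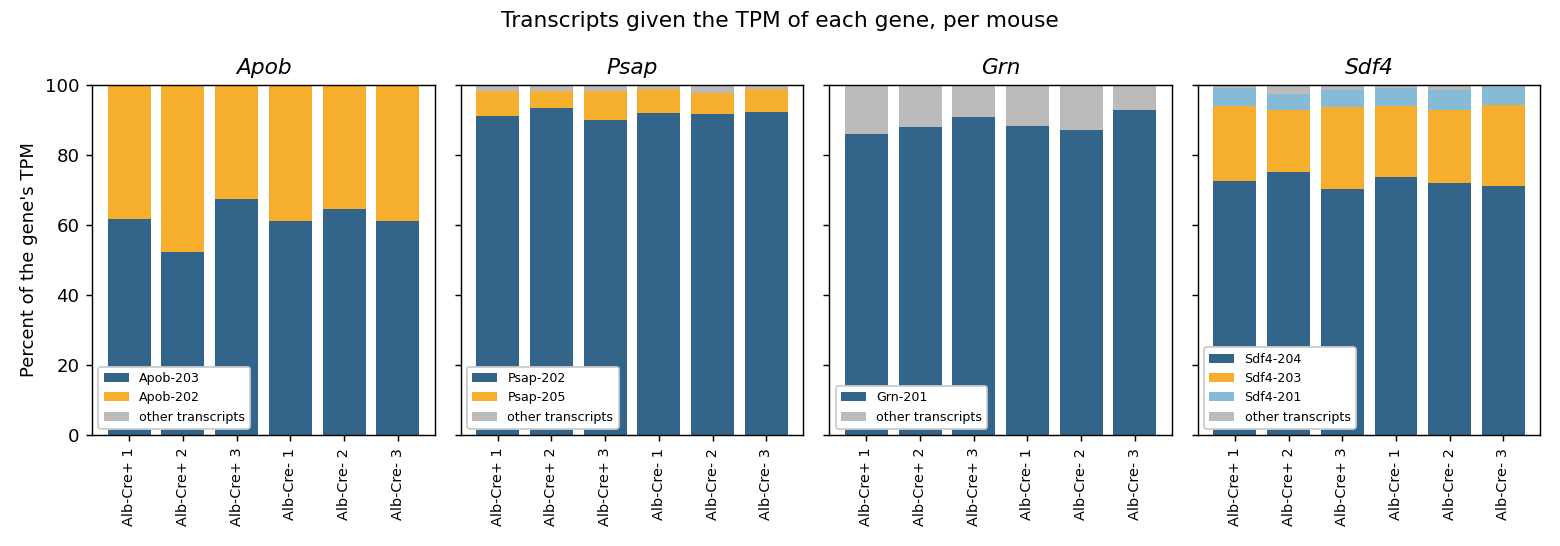
Percent of the TPM of each gene held by its transcripts (y axis) in each of the 6 mice (x axis). Transcripts with a mean share of at least 5% are coloured and all others are grey. The leading transcript is the same in every mouse, Apob-203 at 52.3 to 67.4%, Psap-202 at 90.1 to 93.5%, Grn-201 at 85.9 to 92.9% and Sdf4-204 at 70.3 to 75.0%.

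The order of summed levels was the same in all 6 mice, with Apob above Psap, Psap above Grn and Grn above Sdf4. The place of Apob rests on the TPM given to the short Apob-203, since Apob-202 alone was below summed Psap in every mouse. Ratios within a mouse do not depend on how the libraries are scaled, and 6 pairs of genes were compared. The ratio of Psap to Grn was as small as 1.05 and as large as 1.55, so these neighbours were close, while Apob exceeded Psap by 1.73-fold to 2.26-fold and Grn exceeded Sdf4 by 2.15-fold to 3.35-fold.

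The ratio of Apob to Grn was 2.25, 2.42 and 2.25 in Alb-Cre+ replicates 1, 2 and 3, and 2.68, 3.03 and 2.86 in Alb-Cre- mice. It was lower in every Alb-Cre+ mouse than in any control. The log2 difference was -0.31, with an exact two-sided permutation p of 0.1, the smallest possible here, and an adjusted p of 0.3 over the 6 ratios. This separation is of summed Apob, most of whose TPM were placed on Apob-203. Apob-202 alone was above summed Grn in all Alb-Cre- mice and in Alb-Cre+ replicate 2. It was below summed Grn in Alb-Cre+ replicates 1 and 3. The ratio of Apob-202 to summed Grn was highest of all in Alb-Cre+ replicate 2, so with Apob-202 the genotypes overlapped. The ratio of Psap to Grn was 1.29, 1.22 and 1.05 in Alb-Cre+ and 1.55, 1.34 and 1.31 in Alb-Cre- mice. It also did not overlap, with a log2 difference of -0.24 (exact permutation p = 0.1, adjusted p = 0.3). The ratio of Grn to Sdf4 was 2.74, 3.35 and 2.90 against 2.15, 2.82 and 2.18, higher in each pair but with overlap (log2 difference 0.34, exact permutation p = 0.2, adjusted p = 0.4). The ratios that leave Grn out, of Apob, Psap and Sdf4 to each other, overlapped between genotypes. Of these, the ratio of Psap to Sdf4 was higher in each Alb-Cre+ mouse than in its same-numbered control, by 0.08, 0.11 and 0.08 on the log2 scale (exact permutation p = 0.7, adjusted p = 0.84). The ratios with Grn share its values and are not independent of each other.

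The replicate 2 mice stood apart from the others for every cargo gene. For all 4 genes both replicate 2 mice, the only females, lay above the other 4 mice, as did 36.6% of all genes tested. Female minus male log2 differences were 0.54 for Apob, 0.41 for Psap, 0.43 for Grn and 0.11 for Sdf4. When the libraries were scaled by the median of ratios, these became 0.26, 0.13, 0.14 and -0.17, and only for Psap, 1 of the 4 genes, were both replicate 2 mice still highest (18.7% of all genes). For Grn the difference between genotypes on that scale, 0.30, was then larger than that between females and males. The size factors of that scaling were 1.21 and 1.08 in the replicate 2 mice and 0.847 to 0.994 in the others, and 11125 and 10821 genes reached 1 TPM in the replicate 2 mice against 10059 to 10438 in the others. With 1 female per genotype, sex and whatever else the replicate 2 mice shared cannot be told apart.

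Summed macrophage, neutrophil, endothelial, stellate and lymphocyte markers were also highest in the replicate 2 mice, while those of hepatocytes and cholangiocytes were not. Both replicate 2 mice were highest for 4 of 5 neutrophil, 5 of 6 endothelial, 3 of 6 stellate and 3 of 6 lymphocyte markers. The same held for 1 of 8 hepatocyte and 0 of 5 cholangiocyte markers. In Alb-Cre+ and Alb-Cre- replicate 2, endothelial markers summed to 206 and 188 TPM, against 86.2 to 150 in the other mice. Stellate markers summed to 199 and 207 TPM, against 73.0 to 153, and lymphocyte markers to 9.19 and 9.95 TPM, against 3.13 to 5.66. Of 12 macrophage and Kupffer cell markers, 12 were highest in both replicate 2 mice, and their summed level was 436, 1042 and 302 TPM in Alb-Cre+ replicates 1, 2 and 3 and 438, 998 and 372 TPM in Alb-Cre- mice. Replicate 2 thus had 2.28 to 3.45 times the macrophage marker sum of the other mice of its genotype, and no marker was at 0. Between same-numbered mice the marker sum differed by -0.01, 0.06 and -0.30 on the log2 scale. Of the 12 markers 2 were higher and 10 lower in Alb-Cre+ mice, with a median log2 fold change of -0.08. Marco, a scavenger receptor of macrophages, was 1 of the 2, at 32.6, 73.5 and 18.6 TPM in Alb-Cre+ mice. The Alb-Cre- mice had 14.9, 46.0 and 17.1 TPM, each below the Alb-Cre+ mouse of the same number. Neutrophil markers summed to 42.3, 302 and 53.8 TPM in Alb-Cre+ and 36.0, 147 and 23.5 TPM in Alb-Cre- mice, higher in each Alb-Cre+ mouse than in its same-numbered control. Their part in the levels of Grn and Psap was not tested.

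**Figure D4:**
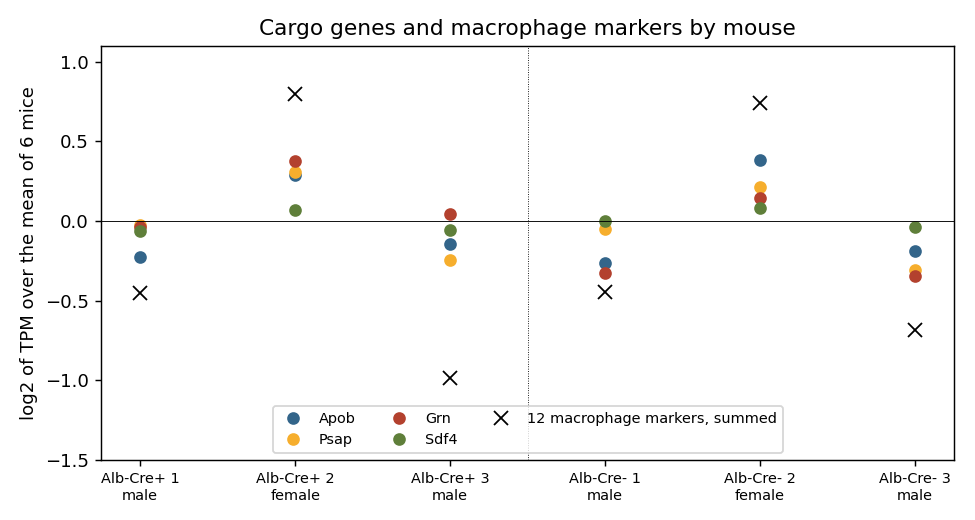
Level of the 4 cargo genes (coloured circles) and summed level of 12 macrophage markers (crosses) in each mouse (x axis, with sex), as log2 of TPM over the mean of the 6 mice (y axis). The cargo genes and the markers are highest in replicate 2 of each genotype.

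Genes that act with the cargo were taken from 5 lists, of which 70 genes other than Surf4 were tested, a few of them in more than 1 list. None was called, 25 were higher and 45 lower in Alb-Cre+ mice, and the median log2 fold change was -0.06, against 7044 higher, 7145 lower and a median of -0.00 over all genes tested. None had an unadjusted p under 0.05 in limma (1.76% of all genes), and 3 had with a replicate block (4.69% of all genes), all of them lower. Both replicate 2 mice were highest for 29 of the 70 genes, or 41.4%.

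The assembly, export, editing and degradation of APOB were represented by 15 genes, of which 4 were higher and 11 lower, with a median of -0.09. Mttp, which encodes the transfer protein that loads lipid onto APOB, stood at 115, 116 and 112 TPM in Alb-Cre+ and 105, 121 and 82.6 TPM in Alb-Cre- mice, with a log2 fold change of 0.17 (SE 0.16). Its partner subunit P4hb (protein disulfide isomerase) was the most abundant of the list, at 358 to 465 TPM, with a log2 fold change of -0.06. Sar1b, the GTPase that starts the COPII coat for large lipoproteins, ranged from 239 to 351 TPM with a log2 fold change of 0.01. Mttp was named after its values were seen.

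Cideb, a protein of lipid droplets and the ER that takes part in lipid loading of lipoproteins, was at 232, 222 and 188 TPM in Alb-Cre+ replicates 1, 2 and 3 and at 300, 256 and 240 TPM in Alb-Cre- mice. Every Alb-Cre+ mouse was below every control. Its log2 fold change was -0.31 (SE 0.14), with an adjusted p of 1.00 in limma and of 0.890 with the block. Groups without overlap were found for 4.9% of all genes tested and for 0 of the 4 cargo genes.

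Of the lysosomal enzymes and activators that work with saposins, 12 were tested, 5 higher and 7 lower, with a median of -0.03. Scarb2, a membrane protein of lysosomes, was the most abundant at 50.8 to 60.2 TPM with a log2 fold change of -0.04. Hexa and Gm2a, a subunit of hexosaminidase and its activator protein, had log2 fold changes of -0.08 and 0.03.

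Among 16 tested genes of sorting receptors, proteases and other handlers of prosaposin and progranulin, 5 were higher and 11 lower, with a median of -0.10. The lysosomal proteases Ctsl, Ctsb and Ctsd led in level, at 909 to 1167, 205 to 389 and 205 to 263 TPM, with log2 fold changes of -0.10, -0.09 and -0.09. Sort1 (sortilin), a receptor that binds progranulin and also APOB, was low, at 1.17, 1.11 and 1.82 TPM in Alb-Cre+ and 1.67, 1.56 and 2.09 TPM in Alb-Cre- mice (log2 fold change -0.37, SE 0.29), and was named after its values were seen. The prosaposin receptor genes Gpr37 and Gpr37l1 were under the minimum mean and were not tested.

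Epha2, a receptor tyrosine kinase reported to bind progranulin, was at 10.8, 6.58 and 5.60 TPM in Alb-Cre+ replicates 1, 2 and 3 and at 18.0, 10.5 and 9.49 TPM in Alb-Cre- mice. It was lower in each Alb-Cre+ mouse than in its same-numbered control, while the groups overlapped. For Epha2 the log2 fold change was -0.72 (SE 0.33), with an adjusted p of 1.00 in limma and of 0.431 with the block, and it was -0.43 without Alb-Cre- replicate 1.

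Relatives and partners of SDF4 showed 4 higher and 6 lower of 10 tested, with a median of -0.05. The most abundant were Cfl1 (cofilin, which takes part in the same sorting step at the Golgi) at 88.9 to 144 TPM, the Golgi calcium-binding protein Nucb1 at 73.0 to 89.9 TPM, and the ER calcium-binding protein Calu at 31.4 to 52.0 TPM. Nucb1 stood at 81.5, 89.9 and 85.9 TPM in Alb-Cre+ and 75.5, 73.0 and 79.0 TPM in Alb-Cre- mice without overlap, with a log2 fold change of 0.18 (SE 0.11) and an adjusted p of 1.00 in limma. Atp2c1, the Golgi calcium pump, had a log2 fold change of -0.15 (SE 0.17) and was named after its values were seen.

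The machinery that SURF4 works beside, other cargo receptors and the COPII coat, was represented by 20 genes other than Surf4, of which 8 were higher and 12 lower, with a median of -0.02. Mcfd2, a soluble partner of the cargo receptor LMAN1, was at 156 to 230 TPM with a log2 fold change of -0.00. Preb, the exchange factor that activates the SAR1 GTPases, was at 64.8 to 116 TPM with a log2 fold change of 0.17 (SE 0.23). Sec16b, a scaffold of ER exit sites, was at 14.7, 15.0 and 10.5 TPM in Alb-Cre+ and 20.04, 16.13 and 15.99 TPM in Alb-Cre- mice, without overlap. Its log2 fold change was -0.39 (SE 0.19), with an adjusted p of 1.00 in limma and of 0.999 with the block, and it was -0.22 without Alb-Cre+ replicate 3.

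**Figure D5:**
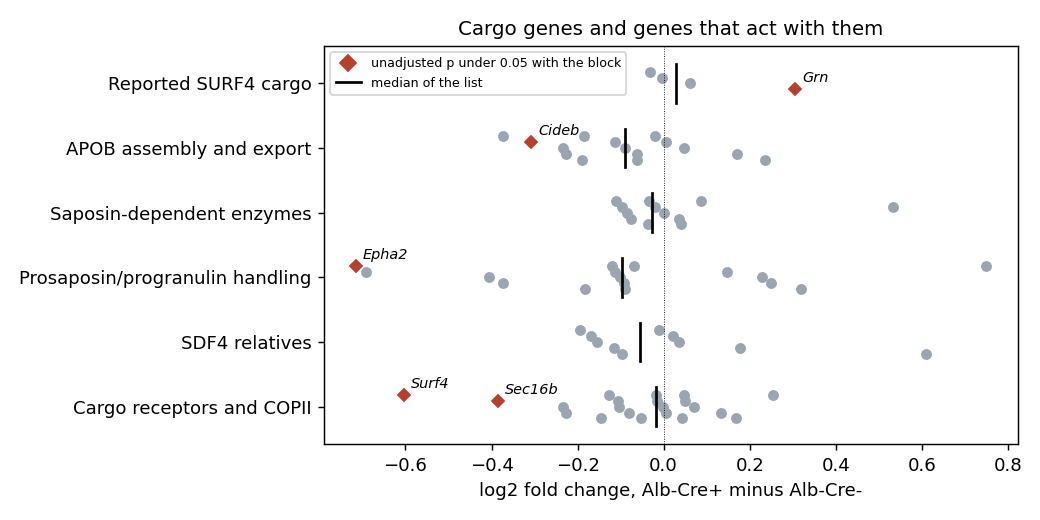
Log2 fold change of Alb-Cre+ over Alb-Cre- mice (x axis) for the 4 cargo genes and each gene tested in the 5 lists of genes that act with them (y axis), with the median of each list as a black line. Red diamonds are genes with an unadjusted p under 0.05 in limma with a replicate block, which are Grn, Cideb, Epha2, Sec16b and the targeted gene Surf4, and none of the genes passed the adjusted test.

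Other proteins named as SURF4 cargo have hardly any mRNA in liver. Epo, the gene of erythropoietin, was at most 0.281 TPM, Gh (growth hormone) at most 0.0206 TPM, and the tooth matrix genes Dspp and Amelx were listed at 0 in all 6 mice. All 4 were under the minimum mean and none was tested. They stand in contrast to the cargo genes described above, whose lowest value in any mouse was 84.2 TPM for Sdf4.

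The genes whose levels ran most like each cargo gene over the 6 mice are given as a description, since 10634 genes were compared over only 6 mice. For Apob these were Efhd2, Samd4b and Nkapd1 (Pearson r 0.998, 0.998 and 0.997). For Psap they were Ezr, Ssbp4 and Tnfrsf21 (r 1.00, 0.997 and 0.996), each at most 7.19 TPM. For Grn they were Pdcd7, Thsd1 and Zfp87 (r 0.992, 0.986 and 0.985), and for Sdf4 they were Prune1, Gnaq and B2m (r 0.994, 0.993 and 0.993). Between the cargo genes themselves r was lowest for Grn with Sdf4 (0.57) and highest for Apob with Sdf4 (0.90). All these values are from TPM as deposited and share the high replicate 2 mice, and r was not computed with median of ratios scaling. On that scale Apob was highest in Alb-Cre- replicate 2 (734). Sdf4 was then highest in Alb-Cre+ replicate 3 (99.5) and lowest in Alb-Cre+ replicate 2 (76.1), so the closeness of this pair depends on the scaling.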

How the data were processed

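TPM per transcript and mouse were deposited by the authors in a table labelled as output of Salmon. Their processing notes also name STAR and RSEM, and the methods describe these with GRCm38, so which tool made the TPM is unsure. Since TPM hold no counts of reads, depth is unknown. A table of the authors' own comparison (fold changes and p-values) was not used.

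TPM were summed per gene symbol over 116748 transcripts, of which 163 had no symbol (at most 0.0887% of TPM) and were left out. A minimum mean of 0.1 TPM was set, and log2(TPM + 0.1), a scale that understates changes of low genes, was fitted in limma 3.58.1 (R 4.3.3) with a variance trend, genotype as the only factor and Benjamini-Hochberg adjustment over all genes at 0.01. Single values were compared by exact permutation (scipy 1.17.1). Alternatives were a block on replicate number, a sex term, a pseudocount of 1 TPM, no minimum or 1 TPM, scaling by median of ratios, no variance trend, an adjusted p of 0.05 and each mouse left out. The fit was tested on simulated data. P-values from limma set the difference between genotypes against the spread between these mice, estimated partly from all genes. Those from permutation place the observed difference among all assignments of the mice to the genotypes.

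Deviations of same-numbered mice correlated (r 0.49, 0.69 and 0.45, all above 0.1), so the numbers were taken to pair the mice. Males with different numbers reached 0.24 (Alb-Cre+ 3 with Alb-Cre- 1) and 0.11 (Alb-Cre+ 1 with Alb-Cre- 3). Both are also above 0.1, so this threshold cannot show that the mice were paired. The labels give only the replicate number, and the fits with the block rest on it. Gene models and sequences are from GENCODE M21 (GRCm38), matched without version numbers since the table's versions are later, and 25 of the 26 transcripts of the 4 genes matched. The genes and lists were chosen with earlier results of these data known. Named were the 4 genes, Surf4, the 3 most abundant genes of each list and those with an unadjusted p under 0.05 in either fit, other cited cargo, and the 3 genes most like each member. Genes named otherwise are said to be, apart from the marker genes. Some genes of the lists are not reported here.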

Additional observations from a re-analysis of the deposited data

How the results depend on the processing

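No cargo gene was called under any setting tried (smallest adjusted p 0.887 in limma). Over all genes, 6 were called with no filter on low values and 0 to 1 with a mouse left out, the 1 without Alb-Cre+ replicate 1. The Apob log2 fold change turned from -0.00 to 0.041 with male mice only and 0.051 with the transcript of most TPM times length of each gene. Partner genes with an unadjusted p under 0.05 numbered 0 as reported and 5 (male mice only), 1 (median of ratios), 1 (that transcript), 2 (no filter), 3 (replicate block) and 4 (replicate block with median of ratios), and were 0 to 3 with a mouse left out. Over all genes tested, 250 of 14189 were under 0.05 as reported and 548 of 14189 with male mice only. There were 325 of 14158 with median of ratios, 252 of 13738 with that transcript and 537 of 35540 with no filter. The replicate block gave 666 of 14189, the block with median of ratios 776 of 14158, and leaving out a mouse 185 to 505 of 14189. With the replicate block the log2 fold changes were the same, and of the members only Grn fell under an unadjusted p of 0.05. Leaving out each mouse in turn gave -0.16 to 0.20 for Apob, -0.086 to 0.19 for Psap, 0.18 to 0.47 for Grn, -0.074 to 0.0022 for Sdf4, -0.72 to -0.52 for Surf4, -0.38 to -0.22 for Cideb, -0.99 to -0.43 for Epha2 and -0.48 to -0.22 for Sec16b. Psap was below 0 without Alb-Cre+ replicate 2 or Alb-Cre- replicate 3, and Sdf4 above 0 without Alb-Cre- replicate 2. For log2 ratios the ranges were -0.35 to -0.27 for Apob to Grn, -0.31 to -0.16 for Psap to Grn, 0.25 to 0.46 for Grn to Sdf4, -0.18 to 0.018 for Apob to Psap, -0.088 to 0.20 for Apob to Sdf4 and -0.012 to 0.20 for Psap to Sdf4. For transcript shares, in percentage points, they were -2.16 to 5.36 (Apob-202), -5.41 to 2.16 (Apob-203), -1.34 to 0.362 (Psap-202), -0.582 to 1.22 (Psap-205), -2.52 to 0.578 (Grn-201), -0.872 to 1.49 (Sdf4-204), -1.96 to 0.908 (Sdf4-203) and -0.614 to -0.303 (Sdf4-201). The male-only, transcript and combined settings were added after the data were seen, and the causes of these changes were not tested.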
